A study of Rattus norvegicus with 10 samples.

Results

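Pancreatic islets of rats 40 days old were compared between JBlyp/lyp animals, which are homozygous for the mutation at the lyp locus, and JB animals, which lack it. The comparison rests on 4 of the 10 arrays of the series, 2 of JBlyp/lyp and 2 of JB. The labels call JBlyp/lyp diabetes prone and JB diabetes resistant but inducible. The other 6 arrays, 2 each of F344lyp, F344 and DR+/+ islets at the same age, enter only through the shared estimate of the spread and where the lyp difference on the F344 background is set beside that on JB. F344lyp and F344 are labelled healthy controls, the first with and the second without lyp in its strain name, and DR+/+ is a further diabetes-inducible line with no lyp mutation. The protocols have JBlyp/lyp and DR+/+ bred from DRlyp/+ pairs, name congenic BB rats, and do not say how JB was derived or whether an array held islets of 1 animal or of several. The animals were fasted, those with high blood glucose were set aside, and islets were freed with collagenase and purified on a gradient. The comparison asks which islet genes differ between rats with and without the lyp genotype on the JB background.

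The BB (BioBreeding) rat develops autoimmune diabetes, in which T cells destroy the insulin-producing beta cells of the islets. Its lyp mutation lies in Gimap5, which encodes a GTPase that keeps resting T cells alive, and rats homozygous for it have few peripheral T cells. Regenerating (Reg) genes encode small secreted lectins that are made by acinar and some islet cells after injury or inflammation, and immediate early genes encode transcription factors and phosphatases that are transcribed within minutes of a stimulus.

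Values are log2 intensities, 1 per probe set and array, and a difference of 1 means a doubling. Over all probe sets JBlyp/lyp 1 and JB 1 correlated at 0.991 and JBlyp/lyp 2 and JB 2 at 0.992. The 2 JBlyp/lyp arrays correlated with each other at 0.981 and the 2 JB arrays at 0.985, so each array was closer to the array of the other genotype with its own replicate number than to its own group. The number counts biological replicates within a group, and the labels do not say whether equal numbers are tied across groups. The 3′ minus 5′ Gapdh probe difference, which grows as RNA is shortened from its 5′ end, was 2.75 and 2.97 in the JBlyp/lyp arrays and 3.71 and 3.31 in the JB arrays. It was thus lower in both JBlyp/lyp arrays and moved with genotype, and its part in the results was examined only as a covariate. The same difference for beta-actin overlapped, at 3.43 and 3.30 in the JBlyp/lyp arrays and 4.17 and 3.40 in the JB arrays. Insulin (Ins1) lay between 14.19 and 14.26 in the 4 arrays and glucagon (Gcg) between 13.15 and 13.74, as islet tissue has them. The protocols state that male rats were used, yet Xist lay between 11.80 and 12.16 and the Y-linked Eif2s3y between 2.39 and 2.56 in these 4 arrays, while Y-linked Uty lay between 8.75 and 9.13. These values do not settle the sex of the animals.

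Gimap5, the gene the mutation lies in, had intensities of 5.95 and 5.65 in JBlyp/lyp islets, against 7.05 and 5.95 in JB islets. Both JBlyp/lyp arrays lay below both JB arrays, but JB 2 exceeded JBlyp/lyp 1 by only 0.009. The difference was -0.70 (SE 0.29, 95% interval -1.36 to -0.05) and did not pass the test (adjusted p = 0.785, limma with Benjamini-Hochberg over all probe sets). With the Gapdh difference as a covariate the sign turned, to 0.36 (SE 0.49), as it did for Gimap7, to 0.25 (SE 0.37). Each value was smaller than its SE, so the sign was not determined in that model. On the F344 background the same probe set read 5.96 and 6.02 in F344lyp and 7.03 and 6.82 in F344 islets. Where the probes lie relative to the mutation is not given in the sources used here, so the probe set does not by itself check the genotype. Of the other GTPases of the same cluster, Gimap7 read 3.60 and 3.67 in JBlyp/lyp against 4.48 and 3.73 in JB islets, a difference of -0.47. Gimap1 differed by -0.20, Gimap4 by -0.16 and Gimap6 by -0.02, and none of the 5 measured Gimap genes passed the test. Among the 25 genes on each side of the cluster on chromosome 4, 34 were measured and 0 were called. Their differences ran from -0.39 to 0.51 with a median of 0.04. Of the 34, 4 (11.8%) lay higher and 3 (8.82%) lower in both JBlyp/lyp arrays than in both JB arrays. The shares over all genes were 14.9% and 12.6%.

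Across the array, 1 of 31042 probe sets passed the test between JBlyp/lyp and JB (0.00322%), that of Reg3a, which rose, or 1 of 14217 genes (0.00703%). At an unadjusted p under 0.05 there were 1935 probe sets, of which 935 were higher and 1000 lower in JBlyp/lyp. Of the 14217 genes, 488 were higher and 369 lower at that threshold. Most differences were small. Differences of more than 1 occurred at 55 probe sets (0.177%), while the 99th percentile of their size was 0.697, and the median SE was 0.172. Genes whose 2 JBlyp/lyp arrays both lay above both JB arrays numbered 2116 of 14217 (14.9%), and those with both below numbered 1796 (12.6%). These shares are the background against which counts of array separation in the gene lists are to be read. Of the 14217 genes, 8388 (59%) had the same sign in the difference between the first replicates and in that between the second.

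Reg3a, whose product is a lectin secreted at sites of tissue injury, had intensities of 7.45 and 6.92 in JBlyp/lyp islets, against 4.47 and 4.79 in JB islets. Both JBlyp/lyp arrays stood well clear of both JB arrays, which in turn lay near the DR+/+ arrays at 4.50 and 4.42. Reg3a rose by 2.55 (SE 0.22, 95% interval 2.06 to 3.05, 5.87-fold, adjusted p = 0.0177, limma). The difference stayed between 2.29 and 2.82 when any of the 4 arrays was left out. The call, but not the direction, was lost without JB 1 (adjusted p = 0.26), without JB 2 (0.0902), without either DR+/+ array (0.111), without either F344lyp array (0.115) and in a model of the 4 compared arrays only (adjusted p = 0.9999, limma). With the Gapdh difference as a covariate the value was 1.96 (SE 0.43) and was not called.

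Reg1a, the founding member of the family, read 10.08 and 8.71 in JBlyp/lyp against 7.66 and 7.79 in JB islets. Its difference was 1.67 (SE 0.36, adjusted p = 0.348, limma), and the 2 JBlyp/lyp arrays differed from each other by more than 1. Reg3b, which like Reg3a belongs to the group of pancreatitis-associated proteins, read 8.55 and 8.32 in JBlyp/lyp against 7.20 and 7.37 in JB islets, a difference of 1.15 (SE 0.20, adjusted p = 0.191, limma). In both genes the groups did not overlap, and neither passed the test. Reg3g, whose product binds bacterial cell walls in the gut, lay the other way, at 4.26 and 4.05 in JBlyp/lyp against 4.91 and 4.86 in JB islets (difference -0.73, SE 0.16, adjusted p = 0.353, limma).

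On the F344 background Reg3a read 12.39 and 12.70 in F344lyp against 10.28 and 9.84 in F344 islets, and it rose by 2.49 (adjusted p = 0.000628, limma). Its lyp difference in JB exceeded that in F344 by 0.07 (SE 0.31, adjusted p = 0.984, limma), although the level in JBlyp/lyp islets was below that in F344 islets without lyp. Reg1a and Reg3b rose in F344lyp by 1.75 and 1.06, and their differences between the backgrounds were -0.08 and 0.08 (adjusted p = 0.989 and 0.975, limma). All 4 Reg genes were called higher in F344lyp, against 1.58% of all genes. Reg3g rose in F344lyp by 2.92, reading 8.16 and 8.33 in F344lyp against 5.47 and 5.18 in F344 islets. Its lyp difference in JB was lower than that in F344, with a difference between effects of -3.65 on the log2 scale (adjusted p = 0.000317, limma), and this difference was called under every alternative run in which it was tested. The 4 calls in F344lyp were 2 without any single F344 or F344lyp array and 3 without a JB or DR+/+ array. Reg genes are also acinar products, and the acinar marker list had a median of -0.18 in JB (-0.48 without JBlyp/lyp 1) and 0.69 in F344. The acinar gene with the largest difference, Prss3bl1, lay the same way as Reg3a, at 7.00 and 7.80 in JBlyp/lyp against 6.36 and 6.64 in JB islets (difference 0.90, SE 0.30, adjusted p = 0.647, limma), and differed by 1.44 in F344.

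**Figure D1:**
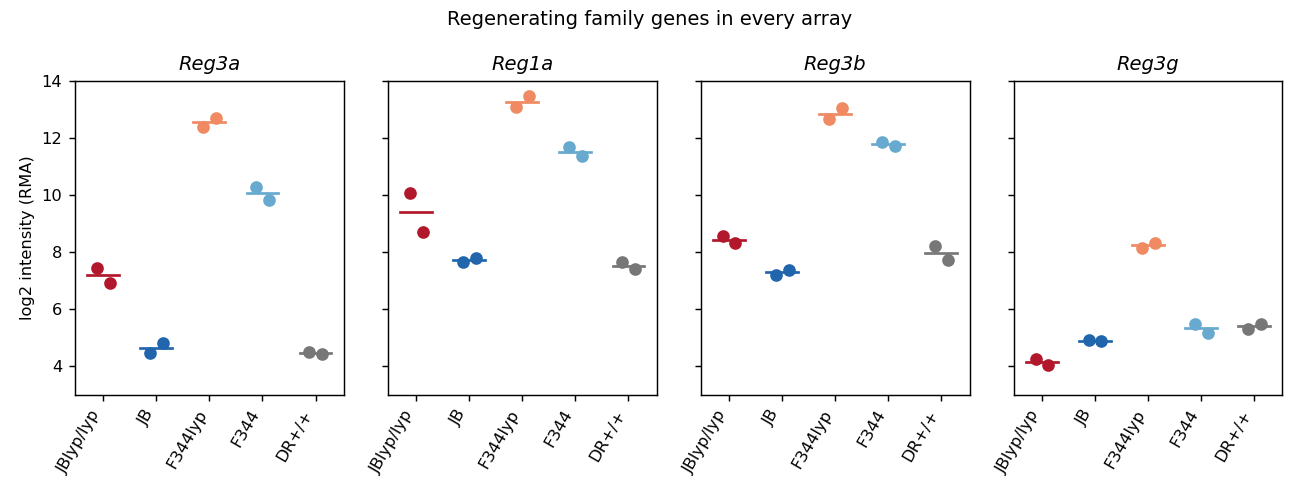
Log2 RMA intensity of Reg3a, Reg1a, Reg3b and Reg3g in each array (points) with the mean of the 2 arrays of a group (line), for JBlyp/lyp, JB, F344lyp, F344 and DR+/+ islets. Reg3a, Reg1a and Reg3b lie higher in both JBlyp/lyp arrays than in both JB arrays, while Reg3g lies lower, with a difference of -0.73.

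The 4 genes are neighbours on chromosome 4, as is the Gimap cluster, from which 191 protein-coding genes separate them in the RefSeq annotation of assembly GRCr8. The 250 bases before each start site are shown, because 3 of the 4 stood higher and 1 lower in JBlyp/lyp islets. They are from RefSeq on GRCr8, 5′ to 3′ on the strand of the gene. Capitals mark TTCNNNGAA, the core recognised by STAT transcription factors, which was searched on both strands and reads the same on each.
Reg3a, chr4:112430147-112430396, plus strand: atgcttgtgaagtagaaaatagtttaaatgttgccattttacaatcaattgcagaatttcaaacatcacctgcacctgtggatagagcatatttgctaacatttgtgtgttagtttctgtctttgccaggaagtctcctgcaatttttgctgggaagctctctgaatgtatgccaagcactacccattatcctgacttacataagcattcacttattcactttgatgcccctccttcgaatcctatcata
Reg1a, chr4:112450216-112450465, plus strand: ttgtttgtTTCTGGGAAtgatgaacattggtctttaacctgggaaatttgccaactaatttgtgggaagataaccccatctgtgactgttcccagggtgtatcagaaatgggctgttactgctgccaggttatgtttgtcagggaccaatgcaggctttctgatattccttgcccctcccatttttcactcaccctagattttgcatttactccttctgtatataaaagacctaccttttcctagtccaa
Reg3b, chr4:112419526-112419775, plus strand: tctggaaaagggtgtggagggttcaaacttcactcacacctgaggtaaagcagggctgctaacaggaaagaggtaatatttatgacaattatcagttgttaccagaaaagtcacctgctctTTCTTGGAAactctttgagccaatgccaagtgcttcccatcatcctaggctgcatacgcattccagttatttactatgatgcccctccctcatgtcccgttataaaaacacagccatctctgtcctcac
Reg3g, chr4:112484739-112484988, minus strand: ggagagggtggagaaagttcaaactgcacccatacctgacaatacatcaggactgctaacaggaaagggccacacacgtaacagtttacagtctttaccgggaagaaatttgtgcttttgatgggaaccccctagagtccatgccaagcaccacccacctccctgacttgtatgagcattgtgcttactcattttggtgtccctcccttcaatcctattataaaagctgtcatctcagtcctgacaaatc
The motif was found in the windows of Reg1a, at position -242 from the start site, and of Reg3b, at position -129. It was found in 2566 of 33469 windows of the same length (7.67%). The windows of Reg3a and Reg3g do not hold these letters.

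Besides the Reg genes, the 12 largest lower values among genes with separate arrays held lymphocyte, immediate early and epithelial genes, none of which passed the test. Fcmr, the IgM receptor of B cells, read 6.54 and 6.07 in JBlyp/lyp against 8.16 and 7.55 in JB islets (difference -1.55, SE 0.23, adjusted p = 0.111, limma). Gpx2, an epithelial glutathione peroxidase, read 6.11 and 5.49 against 7.62 and 6.30 (-1.16, SE 0.36), with JB 1 far above the other JB array. Ddit3, the stress transcription factor CHOP, differed by -1.13 and Ccl21, the lymphatic chemokine that draws T cells, by -1.13. Glycam1, a mucin of lymph node venules that binds L-selectin, differed by -1.03. Zfand2a, a gene induced by arsenite and heat, differed by -1.12 and C2cd4a, a cytokine-induced nuclear factor, by -1.06 (SE 0.14, adjusted p = 0.102, limma). The epithelial genes Gabrp and B3gnt5 stood at -1.16 and -1.07, but a second probe set of Gabrp differed by only -0.04. These genes were taken only from those with separate arrays, so both JBlyp/lyp arrays lay below both JB arrays in each by that choice.

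On the higher side, Tspyl2, a nucleosome assembly protein, read 8.52 in both JBlyp/lyp arrays against 6.27 and 7.66 in the JB arrays (difference 1.55, SE 0.39, adjusted p = 0.466, limma), and with the Gapdh covariate its difference was -0.02. Caly, a vesicle protein of neurons, read 7.89 and 6.34 against 5.65 and 5.68, and Apba3, an adaptor of the X11 family, read 7.39 and 6.00 against 5.47 and 5.25. In Caly and Apba3 the first JBlyp/lyp array lay more than 1 above the second, and without JBlyp/lyp 2 their differences were 2.22 and 2.04 and passed the test (adjusted p = 0.0061 and 0.0361, limma), as did Reg1a at 2.36. Uchl1, a deubiquitinase of neurons and endocrine cells, differed by 1.03, Ccl20, a chemokine for CCR6-bearing lymphocytes, by 0.97, and Dbp, a clock output factor, by 0.97. Slc6a17, a vesicular amino acid transporter, stood at 0.94 and Mta1, a chromatin remodeller, at 0.92, with a second probe set of Mta1 at 0.22. Of the other probe sets of Slc6a17, 1 differed by 0.90 and the others by -0.24 to 0.01. For Sbno1, a helicase-like nuclear protein, the difference was 1.002, and a second probe set lay the other way at -0.35.

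Immediate early genes stood lower in JBlyp/lyp islets as a group. Of 43 measured, 40 had a negative difference, 26 (60.5%) lay lower in both JBlyp/lyp arrays than in both JB arrays, against 12.6% of all genes, and 0 lay higher. Their median difference was -0.47, against 0.02 over all genes. In this list 0 were called by limma. At an unadjusted p under 0.05, 19 were lower and 0 higher, against 369 lower and 488 higher of all 14217 genes.

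Nr4a2, an orphan nuclear receptor, read 6.54 and 6.69 in JBlyp/lyp against 7.78 and 7.93 in JB islets (difference -1.24, SE 0.18, adjusted p = 0.111, limma), and its second probe set differed by -0.89. Ier2, a nuclear regulator induced by growth factors, read 9.36 and 8.99 against 10.34 and 10.24 (-1.12, SE 0.16, adjusted p = 0.111), and Atf3, a repressor induced by stress, 9.03 and 8.91 against 10.05 and 9.84 (-0.97, SE 0.15, adjusted p = 0.114). In these 3 the gap between the genotypes was several times the gap between arrays of 1 genotype. Gadd45b, a growth arrest protein, differed by -0.92 and Jun, a subunit of the AP-1 factor, by -0.87 (SE 0.15), each with separate groups. Klf6 had the fourth lowest value at -0.94, but its arrays overlapped, at 8.01 and 9.28 against 9.23 and 9.95. The other 2 probe sets of Klf6 were separate between the genotypes, at -1.47 (adjusted p = 0.111, limma) and -0.83. Those of Jun differed by -1.07 and -0.97. The most abundant member, Fos, read 12.81 and 12.63 in JBlyp/lyp against 13.19 and 13.14 in JB islets, and differed by -0.45.

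The list's median was -0.36 without JBlyp/lyp 1 and -0.68 with the Gapdh difference as a covariate, the lowest and highest sizes among the alternatives. In F344 the list had a median of -0.20. By the test 2 members fell and 1 rose there, against 0.317% and 1.58% of all genes. They were Rgs2 and Jun at -0.85 and -0.79 and Myc at 0.80. These 3 calls were 0 without any single F344 or F344lyp array and 1 without a DR+/+ array. For 0 of the 43 genes did the lyp differences of JB and F344 differ from each other by limma's test.

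Cytosolic heat shock genes were split. Of 20 measured, 7 (35%) lay lower and 4 (20%) higher in both JBlyp/lyp arrays, against 12.6% and 14.9% of all genes. The median of the list was -0.15 (-0.09 without JBlyp/lyp 1 and -0.25 without JB 1) and 0 were called. Hspa1a, the inducible Hsp70, read 11.56 and 11.60 in JBlyp/lyp against 12.39 and 12.60 in JB islets (difference -0.92, SE 0.15, adjusted p = 0.149, limma), and it fell in F344lyp by 1.30, a call lost without F344 1 or F344 2. The co-chaperone genes Dnajb1 and Hsph1 stood at -0.75 and -0.58, with a second probe set of Dnajb1 at -1.24. The small chaperone gene Hspb8 stood at -0.61, and Hspb1 at -0.55 with overlapping arrays, while Fkbp4, a co-chaperone of steroid receptors, stood at 0.63.

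**Figure D2:**
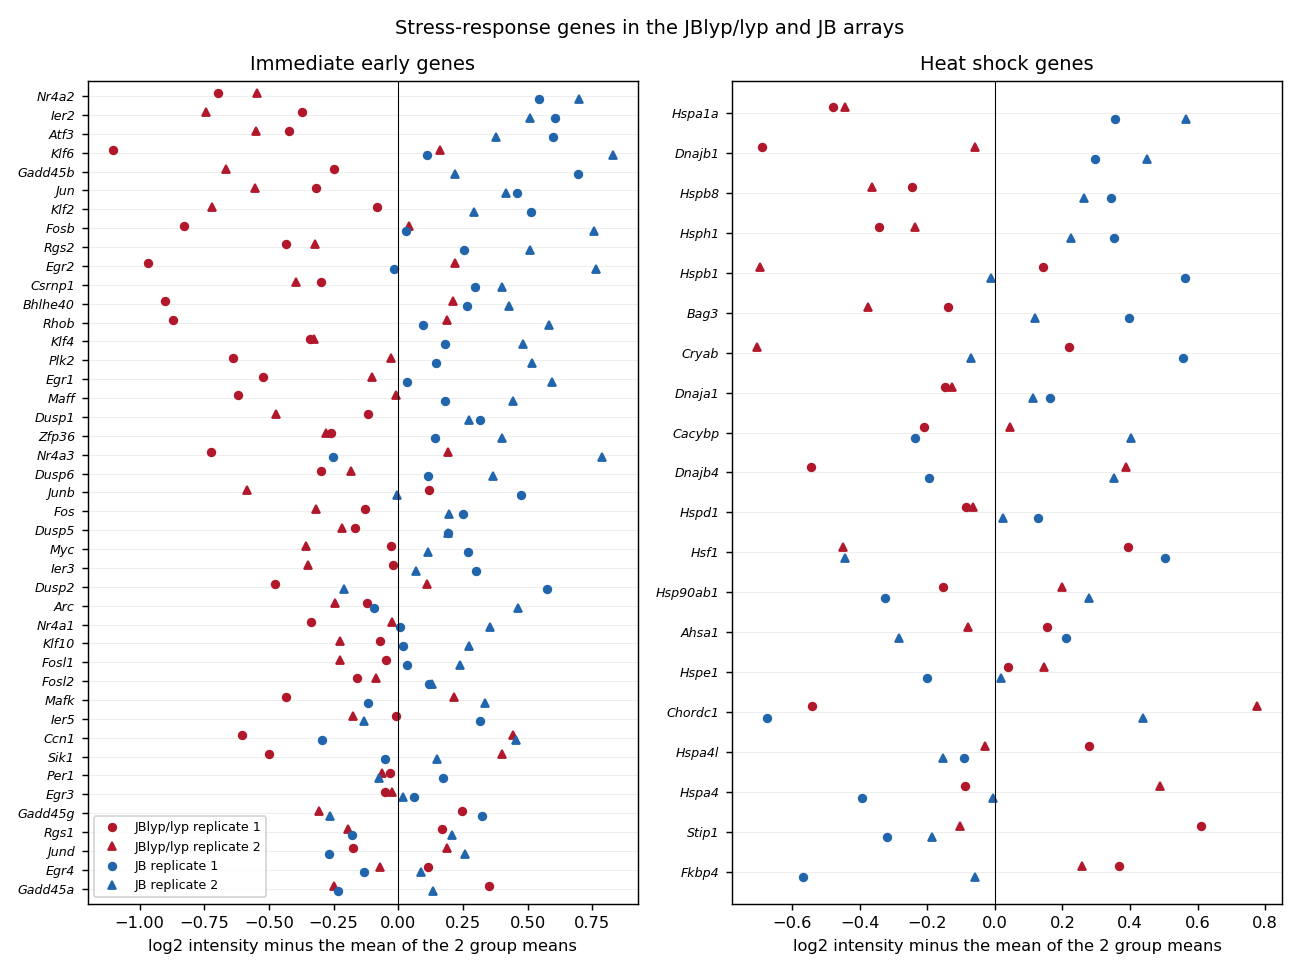
Log2 intensity of each immediate early gene (left) and heat shock gene (right) in the 2 JBlyp/lyp and 2 JB arrays, less the mean of the 2 group means, with genes sorted by the JBlyp/lyp minus JB difference. In 26 of 43 immediate early genes both JBlyp/lyp points lie left of both JB points, and in 0 do both lie right of them.

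T cell genes were low in the islets of both genotypes and lay lower in JBlyp/lyp islets for part of the list. Of 27 measured, 11 (40.7%) lay lower and 1 higher in both JBlyp/lyp arrays, against 12.6% and 14.9% of all genes. The median of the list was -0.12. By limma 0 were called, and 8 were lower at an unadjusted p under 0.05, against 369 of all 14217 genes. The summed intensity of the list was 9.46 and 9.54 on the log2 scale in JBlyp/lyp and 9.89 and 9.84 in JB islets, which do not overlap. In whole islets fewer cells of a type and less RNA per cell cannot be told apart.

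The lowest values were those of the T cell receptor complex and of T cell transcription factors. Cd3g read 4.27 and 3.73 in JBlyp/lyp against 5.15 and 4.85 in JB islets (difference -0.999, SE 0.29, adjusted p = 0.588, limma). Cd3e read 4.49 and 5.20 against 5.59 and 5.83 (-0.86), and Cd3d read 4.92 and 4.99 against 5.64 and 5.66 (-0.69, SE 0.13, adjusted p = 0.224). All 3 CD3 chains were separate between the genotypes, but a second, dimmer probe set of Cd3e was not. Tcf7 and Lef1, transcription factors of naive T cells, stood at -0.93 and -0.81, and Bcl11b, needed for T cell commitment, at -0.71 with overlapping arrays. Unlike Gimap5, the 3 CD3 chains on JB 2 were closer to JB 1 than to either JBlyp/lyp array. Other members, such as Cd4 at 0.16, Cd5 at 0.03 and Ctla4 at 0.05 lay at low intensities of 3.83 to 4.37 in all 4 arrays. Without JBlyp/lyp 1 the median of the list was -0.06, without JBlyp/lyp 2 it was -0.22, and without JB 2 it was -0.19. Over the 7 members whose mean over all arrays exceeded 5.44, the median probe set, it was -0.69.

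In F344 the list had a median of -0.43. By the test 3 members fell there, against 0.317% of all genes, namely Cd3d at -1.32, Cd8a at -1.14 and Tcf7 at -1.02. The 3 were 1 without any single F344 or F344lyp array and 5 without either JBlyp/lyp array. The lyp difference of 0 T cell genes differed between JB and F344 by limma's test.

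B cell genes followed a like pattern. Of 14 measured, 7 (50%) lay lower and 0 higher in both JBlyp/lyp arrays, against 12.6% and 14.9% of all genes, and 0 were called. At an unadjusted p under 0.05, 6 were lower, against 369 of all 14217 genes. The median was -0.30, and it was -0.19 with the mean of all probe sets of a gene and -0.38 with the Gapdh covariate. Besides Fcmr, the coactivator gene Pou2af1 read 4.16 and 4.35 in JBlyp/lyp against 4.91 and 5.17 in JB islets (difference -0.79), and the complement receptor gene Cr2 read 5.04 and 5.53 against 5.92 and 6.21 (-0.78). Ms4a1, which encodes CD20, stood at -0.63, Jchain, the joining chain of secreted antibody, at -0.40 and the kinase gene Blk at -0.37. A second probe set of Jchain differed by only -0.16, and that of Blk by -0.04 with overlapping arrays. The other probe sets of Cr2 differed by -0.90 to -0.29. Summed, the list gave 10.05 and 10.06 in JBlyp/lyp against 10.46 and 10.39 in JB islets. The chemokine Ccl21 and the venule mucin Glycam1, which mark lymph node stroma, lay lower beside these genes, and whether lymph node tissue entered the preparations was not tested. Natural killer cell genes did not share the pattern, with 1 of 15 lower, 1 higher and a median of 0.04. Their summed intensity was low, at 8.26 and 8.28 in JBlyp/lyp against 8.25 and 8.23 in JB islets, so a fall could be missed. Of 37 macrophage and dendritic cell genes 7 lay higher and 6 lower, with a median of 0.00, and the most different was Ptprc, the shared leukocyte antigen CD45, at -0.68 (SE 0.36), with a second, dimmer probe set at -0.03.

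**Figure D3:**
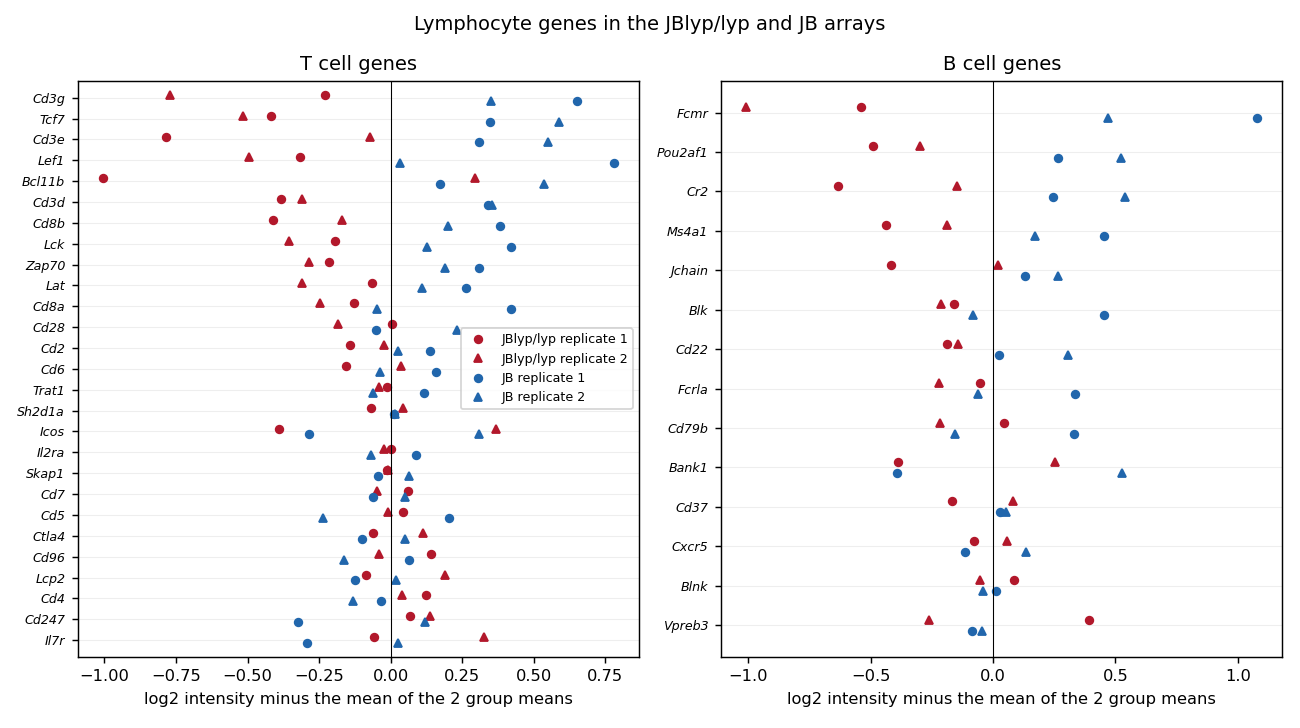
Log2 intensity of each T cell gene (left) and B cell gene (right) in the 2 JBlyp/lyp and 2 JB arrays, less the mean of the 2 group means, sorted by the JBlyp/lyp minus JB difference. Both JBlyp/lyp points lie left of both JB points in 11 of 27 T cell genes and 7 of 14 B cell genes.

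Endocrine genes showed no called difference. Ins1 read 14.26 and 14.23 in JBlyp/lyp against 14.20 and 14.19 in JB islets, a difference of 0.05 with a 95% interval from -0.21 to 0.32. Ins2 read 13.98 and 13.87 against 13.90 in both JB arrays, a difference of 0.02 (interval -0.27 to 0.31). These are among the highest intensities on the arrays, and whether they were saturated was not tested.

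The glucagon gene Gcg read 13.74 and 13.37 in JBlyp/lyp against 13.15 and 13.26 in JB islets (difference 0.35, interval -0.03 to 0.74), and the somatostatin gene Sst 13.30 and 12.95 against 12.86 and 12.65 (0.37, interval -0.03 to 0.78). Both were separate between the groups, and neither passed the test (adjusted p = 0.825 and 0.823, limma). The pancreatic polypeptide gene Ppy, the amylin gene Iapp and the peptide YY gene Pyy differed by 0.01, 0.06 and 0.10, and their first JBlyp/lyp array was the highest of the 4 each time. Ghrl, which encodes ghrelin, differed by -0.17. Leaving out JBlyp/lyp 1 turned Ppy to -0.50, Iapp to -0.38 and Pyy to -0.20, and leaving out JB 2 turned them to -0.27, -0.17 and -0.0135. Of 38 beta cell genes, 6 (15.8%) lay higher and 0 lower in both JBlyp/lyp arrays, against 14.9% and 12.6% of all genes. The median of the list was 0.07. The range was -0.30 for Ppp1r1a, a phosphatase inhibitor, to 0.42 for Pcsk2, the prohormone convertase that read 12.23 and 11.81 in JBlyp/lyp against 11.62 and 11.57 in JB islets. Transcription factors of beta cell identity were close, at -0.15 for Pdx1, 0.09 for Mafa and 0.18 for Nkx6-1.

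**Figure D4:**
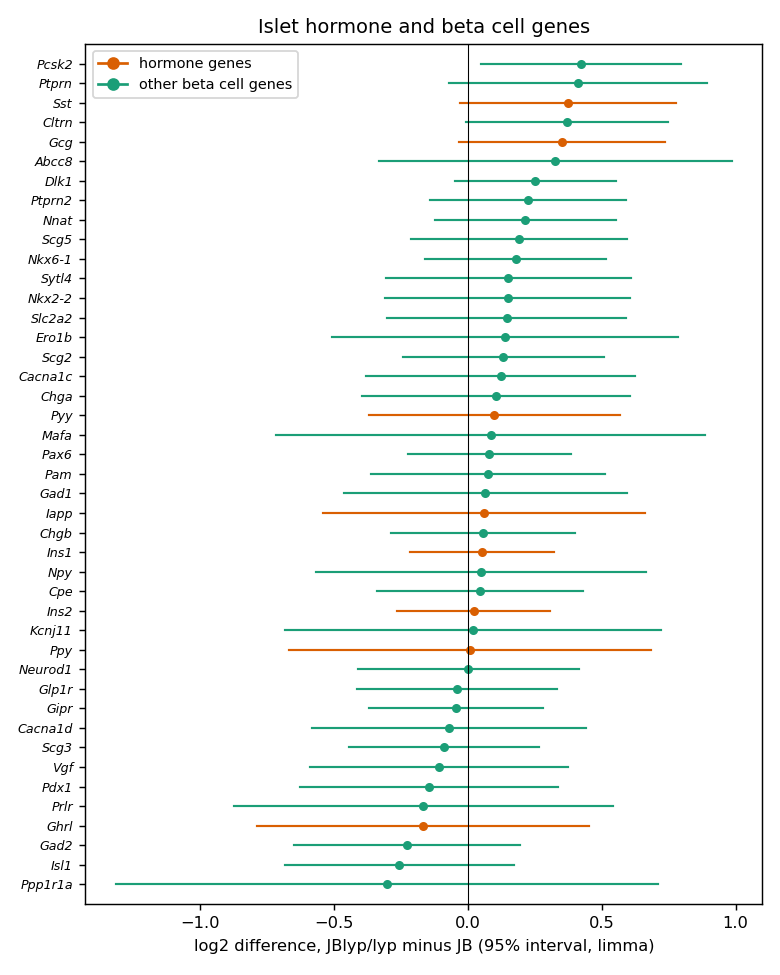
Log2 difference of JBlyp/lyp minus JB islets for hormone genes and other beta cell genes, with the 95% interval of limma's model as bars. The intervals of Ins1 and Ins2 run from -0.21 to 0.32 and from -0.27 to 0.31, and that of Pcsk2, the highest, lies above 0 without passing the adjusted test.

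The study asked about the capacity of BB islets to deal with oxidative stress, and the antioxidant genes did not separate the genotypes as a group. Of 52 measured, 8 (15.4%) lay higher and 6 (11.5%) lower in both JBlyp/lyp arrays, close to the 14.9% and 12.6% of all genes. The median of the list was 0.03. By limma 0 were called. At an unadjusted p under 0.05, 4 were higher and 4 lower, against 488 higher and 369 lower of all 14217 genes. After Gpx2, the member with the second lowest value was the metallothionein gene Mt1 at -0.77, and Hmox1, the stress-induced haem oxygenase, followed at -0.59. At the other end stood Ucp2, a mitochondrial carrier, at 0.61 and Slc7a11, the cystine importer, at 0.57. Of 21 glutathione transferase genes 4 lay higher and 2 lower, and Gstt3 was the most different at -0.85, reading 5.56 and 4.87 in JBlyp/lyp against 6.21 and 5.92 in JB islets. Endoplasmic reticulum stress genes held 6 higher and 6 lower of 37, with Ddit3 and Atf3 lowest and Wfs1, the wolframin gene of beta cells, highest at 0.77 (SE 0.15, adjusted p = 0.283, limma). Respiratory chain genes lay higher in 10 (17.2%) and lower in 1 of 58, with a median of 0.07. These counts depended on single arrays, with 30 members (51.7%) below without JBlyp/lyp 1, where 34.8% of all genes were below, and 47 (81%) above without JBlyp/lyp 2, where 36.7% of all genes were above. The largest difference was that of Atp5f1d, an ATP synthase subunit, at 0.65 (SE 0.30). Hypoxia and glycolysis genes lay higher in 10 (29.4%) and lower in 2 of 34, with a median of 0.12 (0.06 without JB 1 and 0.20 without JB 2), led by the phosphofructokinase gene Pfkm at 0.56.

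The lyp differences on the 2 backgrounds share no array and were set against each other within 1 model. In F344, 468 of 31042 probe sets were called (1.51%), among them 225 genes that rose (1.58%) and 45 that fell (0.317%), and the difference between the 2 lyp effects was called for 88 (0.283%). Of the 14217 genes, the JB effect was lower in 61 (0.429%) and higher in 7 (0.0492%). Genes of exocrine, gut and mast cell identity made up part of the 61.

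Acinar genes showed no called difference in JB, with 1 higher and 2 lower of 36 and a median of -0.18, although without JBlyp/lyp 1 the median was -0.48 and 27 (75%) were lower, against 34.8% of all genes in that setting. In F344lyp the median was 0.69 and 11 rose (5 without F344 1, F344 2 or F344lyp 2, and 7 without F344lyp 1). Of all genes 14.9% lay higher and 12.6% lower in both JBlyp/lyp arrays than in both JB arrays, and 1.58% rose in F344lyp. The JB and F344 lyp differences differed from each other for 5 of the 36 acinar genes, all lower in JB, against 0.429% of all genes. Aqp8, a water channel of acinar cells, read 5.03 and 5.14 in JBlyp/lyp against 5.08 and 5.06 in JB islets, and 9.18 and 9.53 in F344lyp against 6.87 and 6.47 in F344 islets, a difference between effects of -2.66 (adjusted p = 0.00253, limma). Ptf1a, the transcription factor that fixes acinar identity, gave -2.79 (adjusted p = 0.0083, limma). The summed acinar intensity on the log2 scale was 16.57 and 15.96 in JBlyp/lyp and 16.55 and 16.24 in JB islets, and 18.09 and 18.32 in F344lyp and 17.73 and 17.54 in F344 islets. In JB the 2 genotypes overlapped in this sum. Cth, which makes cysteine from cystathionine and is abundant in exocrine tissue, was the 1 antioxidant gene whose effects differed, at -2.69 (adjusted p = 0.00232, limma).

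Of 26 intestinal epithelium genes the effects differed for 6, all lower in JB, against 0.429% of all genes. Lypd8, a protein of colon epithelium, lay between 3.47 and 3.92 in the 4 JBlyp/lyp and JB arrays and rose by 3.38 in F344lyp (difference between effects -3.52, adjusted p = 0.000579, limma), and the goblet cell gene Clca1 gave -2.35, with a second, dimmer probe set at -0.97. Of 24 ductal genes 2 differed, the trefoil factor gene Tff2 at -2.29 and the mucin gene Muc1 at -1.92. Of 20 mast cell and eosinophil genes 3 differed, among them the chymase genes Mcpt1l1 at -2.49 and Cma1 at -2.40. In JB the mast cell genes were near the lower end of the scale, with Mcpt1l1 at 4.217 and 4.002 in JBlyp/lyp against 3.40 and 3.91 in JB islets. Among 12 mesothelial genes Upk1b, a membrane protein of the mesothelium, read 5.81 and 5.70 in JBlyp/lyp against 6.80 and 6.40 in JB islets (difference -0.84, SE 0.16) and rose by 1.27 in F344lyp, and Lrrn4 gave a difference between effects of -2.07. The other 2 probe sets of Lrrn4 gave -0.29 and -0.83 and were not called (adjusted p = 0.848 and 0.372, limma).

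Nerve and Schwann cell genes were the list with effects higher in JB. Of 30 measured, 4 had a called difference in that direction, and 6 fell and 1 rose in F344lyp (7 calls, which were 1 without F344 1, F344 2 or F344lyp 2 and 3 without F344lyp 1). Vip, a peptide of enteric and islet nerves, read 8.21 and 7.89 in JBlyp/lyp against 7.69 and 7.93 in JB islets, and 7.72 and 7.70 in F344lyp against 9.51 and 9.55 in F344 islets, a difference between effects of 2.05 (adjusted p = 0.00495, limma). Gap43, a growth cone protein, gave 1.54, while a second, dimmer probe set gave -0.06. The median of the list was 0.04 in JB (-0.02 without JBlyp/lyp 1 and 0.13 without JB 2) and -0.21 in F344. Over all genes 0.0492% had an effect called higher in JB, and 0.317% fell and 1.58% rose in F344lyp.

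The counts of called differences between effects rest on few arrays. The 5 acinar genes were 2 without any single F344 or F344lyp array and 11 without JBlyp/lyp 1. The 6 intestinal genes were 3 without F344 1, F344 2 or F344lyp 1, 2 without F344lyp 2 and 4 without JB 2. The 4 nerve genes were 0 or 1 without any single F344 or F344lyp array, 2 without JB 1 and 1 without JB 2. The 3 mast cell genes were 0 without F344 2 or F344lyp 2 and 1 without F344 1. The 2 ductal genes were 0 without F344 2 or F344lyp 2 and 1 without F344 1, and the 2 mesothelial genes were 1 without F344 1, F344 2 or F344lyp 2. With the Gapdh difference as a covariate the acinar, nerve, ductal and mesothelial counts were 0.

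**Figure D5:**
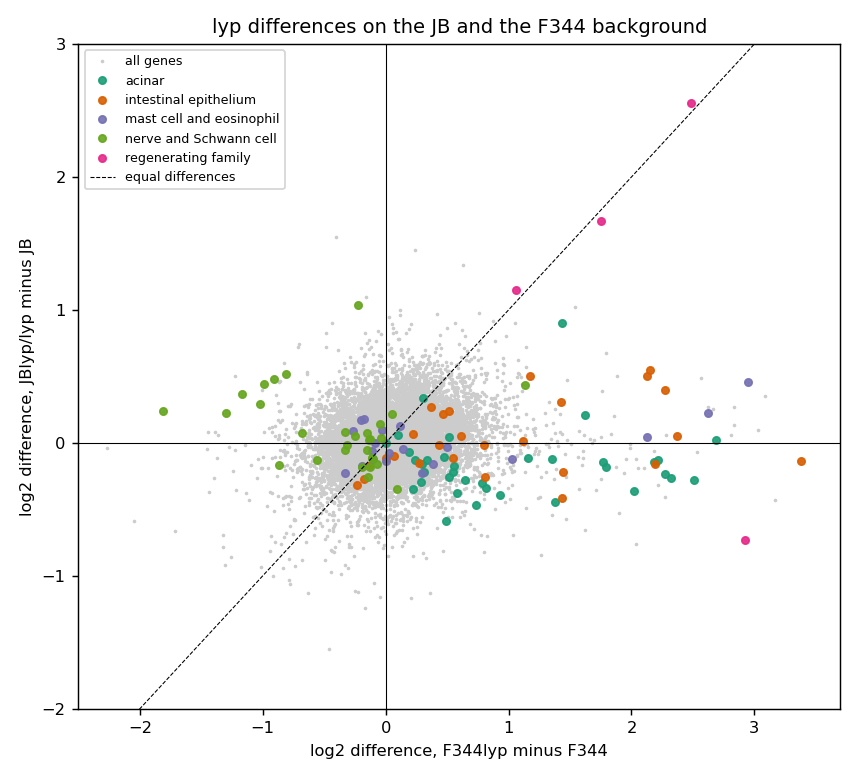
Log2 difference JBlyp/lyp minus JB (vertical) against F344lyp minus F344 (horizontal) for the 14217 genes (grey), with 5 gene lists coloured and the dashed line marking equal differences. Reg3a, Reg1a and Reg3b lie on the line, while Reg3g lies right of the line at -0.73 and 2.92. Many acinar and intestinal genes lie right of the line near 0 on the vertical axis. The mast cell and eosinophil list had a median of 0.02 in F344, and 4 of its 20 genes were called higher there.

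The remaining lists had 0 genes called in JB by limma, and their counts at an unadjusted p under 0.05 were at most 6 in either direction. Of all genes 14.9% lay higher and 12.6% lower in both JBlyp/lyp arrays, the background for the counts that follow. Endothelial genes held 9 (28.1%) lower and 2 higher of 32, with a median of -0.24 (-0.10 without JB 2), while Ramp2, a receptor partner of adrenomedullin, stood at 0.84, reading 8.95 and 9.13 in JBlyp/lyp against 7.74 and 8.65 in JB islets, and at 0.39 to 1.30 when any of the 4 arrays was left out. Stellate cell and matrix genes held 12 (24.5%) lower and 3 higher of 49, with Col6a2, a collagen VI chain, the most different at 0.74 and a second probe set of it at 0.15. Chemokine and inflammation genes held 14 (25%) lower and 6 higher of 56, with Cxcl1, a neutrophil chemokine, at -0.82 and Tnfaip3, an inhibitor of NF-kB signalling, at -0.69. The apoptosis list was lowest at the survival gene Mcl1, at -0.62, whose second probe set differed by -0.08. Interferon genes had 3 higher and 2 lower of 35 with a median of 0.01, and Irf1 stood at -0.56 with overlapping arrays. Antigen presentation genes had 8 higher and 5 lower of 34, with the peptide transporter gene Tap2 at -0.59. Ductal genes had 1 higher and 5 lower of 24, intestinal genes 6 and 5 of 26, mast cell and eosinophil genes 5 and 6 of 20, and mesothelial genes 0 and 4 of 12. Endocrine genes other than those of beta cells had 2 higher and 1 lower of 19, with a median of 0.08 (0.23 without JBlyp/lyp 2). Medians of the ribosomal, cell cycle, sterol, erythroid and neutrophil lists lay between -0.06 and 0.06. The cell cycle median was -0.10 without JB 2 and 0.02 without JB 1, and the neutrophil median -0.09 without JB 2. That of the sterol list was 0.12 without JBlyp/lyp 2 and -0.02 without JB 2. Of 31 ribosomal genes 64.5% lay below without JBlyp/lyp 1, against 34.8% of all genes, and 74.2% above without JBlyp/lyp 2, against 36.7%. The largest differences in lists not yet named were -0.93 for the ribosomal protein gene Rps13, which read 5.14 and 5.57 in JBlyp/lyp against 6.03 and 6.54 in JB islets, and -0.66 for Spp1, which encodes osteopontin, among ductal genes. The others were Cdh17, an intestinal cadherin, at 0.55, Mcm5, a subunit of the replicative helicase, at -0.54, Lss, which makes lanosterol, at 0.45, Hbb, a globin, at -0.30, Lcn2, a neutrophil lipocalin, at -0.28 and Gzma, granzyme A, at 0.24.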

How the data were processed

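Islet RNA of 5 rat groups was measured on 10 Affymetrix arrays, 2 per group. The deposited values are log2 intensities, which the authors obtained, per the submitters' processing notes, using GCOS and RMA (versions not given in the sources here). Of 31099 probe sets 57 controls were set aside. Group means of all 5 groups were fitted with limma 3.58.1 in R 4.3.3 (5 residual and 4.72 prior degrees of freedom), and JBlyp/lyp minus JB, F344lyp minus F344 and the difference of these were taken as contrasts with moderated two-sided tests. Calls were made where the p-value, adjusted after Benjamini and Hochberg over all 31042, was under 0.05. The number of arrays limits the precision. The titles call the 2 arrays of a group biological replicates and do not say whether each held 1 animal or a pool. The p-values thus measure the spread between preparations, pooled over all 5 groups. That spread was unequal, as the 2 arrays of a group correlated at 0.981 in JBlyp/lyp and at 0.997 in F344. A single gene symbol was annotated for 20826 of the 31042 probe sets, more than 1 for 436 and none for 9780. For each of the resulting 14217 genes the brightest probe set on average was used. The identifiers of 20758 were found in the RefSeq table of GRCr8, which changed 0 symbols. The method was tested on simulated data.

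The comparison and the 35 gene lists were chosen with earlier results of these data known. Genes are named if called, as the member with the largest difference of a list with none called, or as Gimap or hormone genes. As 1 gene was called, the 12 largest differences of each sign among genes with separate arrays, all measured Reg genes, the 6 largest differences in 5 lists, the 2 largest called differences between the effects in each list and a clock list were added after their values were seen. Other genes named as examples were also chosen after their values were seen. Alternatives were other scalings, filters and priors, fewer arrays, a replicate term and a Gapdh covariate. Python 3.11.15 and matplotlib 3.10.9 drew the figures.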

Additional observations from a re-analysis of the deposited data

Results flagged for a closer look

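In 15 genes named above or added by rule, the lyp difference in JB and that in F344 differed by limma's test of the difference itself (Benjamini-Hochberg over all probe sets, 2 arrays per group). The JB effect was lower in 13: Reg3g by -3.65 (adjusted p = 0.000317), Lypd8 by -3.52 (0.000579), Ptf1a by -2.79 (0.0083), Cth by -2.69 (0.00232), Aqp8 by -2.66 (0.00253), Mcpt1l1 by -2.49 (0.0138), Cma1 by -2.40 (0.00584), Clca1 by -2.35 (0.00584), Tff2 by -2.29 (0.00584), Upk1b by -2.11 (0.00584), Lrrn4 by -2.07 (0.00232), Muc1 by -1.92 (0.0114) and Hspb8 by -1.30 (0.0408). It was higher in 2, Vip by 2.05 (0.00495) and Gap43 by 1.54 (0.0236). These genes were listed because of this call, so that their effects differ was fixed by the choice. Over all 14217 genes the JB effect was called lower in 61 (0.429%) and higher in 7 (0.0492%). The other probe sets of Lrrn4 (-0.29 and -0.83), Clca1 (-0.97), Gap43 (-0.06) and Hspb8 (-0.48) were not called. The difference kept its sign under all alternatives in which it was fitted. Hspb8 was the least stable, called in 5 of 18, while Reg3g and Lypd8 were called in all of theirs. Groups of 2 arrays were too small to look for single arrays that stand apart.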

How the results depend on the processing

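The count of 1 called probe set in JB was 1 with quantile normalization, median centring or the brighter probe sets only (mean over 5.44), and 3 with an intensity trend. It was 0 in the 4 compared arrays alone, 0 without the DR+/+ arrays and 0 with the Gapdh covariate (955, 1853 and 670 at an unadjusted p under 0.05), and 0 to 4 without single arrays. The labels do not say that replicate numbers pair the arrays, and with 2 numbers the data cannot settle it. Deviations from the group means of same-numbered JBlyp/lyp and JB arrays correlated at 0.652, against -0.10 to 0.24 for other pairs of groups. With a replicate block over all arrays 5 were called, and with a JB replicate block, a term for the 4 arrays added after the correlations were seen, 104 (33 higher, 71 lower). Among the named genes Fcmr passed with the replicate block over all arrays (adjusted p = 0.0131, limma), and with the JB replicate block 28 gained a call, among them Fcmr, Nr4a2, Ier2, Atf3, Ddit3, C2cd4a, Ccl21, Gpx2, Reg1a, Reg3b and Cd3d (adjusted p = 0.00196 for Fcmr to 0.0451 for Cd3d). In F344 the 468 calls became 745 with the replicate block, 2433 with the JB replicate block, 3230 in the 4 arrays alone, 265 in brighter probe sets, 123 with the Gapdh covariate and 58 to 823 without single arrays. The 88 differences between effects became 423, 50 and 7 with the JB replicate block, brighter probe sets and the Gapdh covariate, and 18 to 130 without single arrays.

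Of the alternative values of the named genes in JB 35 turned sign, 1710 kept sign and side of the threshold, 32 gained a call and 9 lost it. The 9 lost calls are those of Reg3a. With quantile normalization Ppy was -0.0205. For the values with the Gapdh covariate that follow, the SE ran from 0.28 (Vip) to 0.595 (Iapp). With the Gapdh covariate Gimap5 was 0.36, Gimap7 0.25, Lcn2 0.13, Blk 0.17, Ptf1a 0.25, Muc1 0.0938, Lypd8 0.39, Mcpt1l1 -0.43, Col6a2 -0.49, Ins2 -0.0236, Iapp -0.0642, Tspyl2 -0.0174, Fkbp4 -0.20, Cma1 -0.19 and Vip -0.22. Without single arrays the range was -0.0339 to 0.0751 for Aqp8, -0.12 to 1.22 for Cdh17, -0.61 to 0.27 for Ghrl, -0.39 to 0.0679 for Gimap4, -0.24 to 0.19 for Gimap6, -0.61 to 0.0043 for Hbb, -0.38 to 0.50 for Iapp, -0.0307 to 0.0733 for Ins2, -0.57 to 0.0027 for Lcn2, -0.36 to 0.0843 for Lypd8, -0.50 to 0.52 for Ppy, -0.20 to 0.40 for Pyy and -0.40 to 0.0194 for Tff2. The cause was not tested. The 2 arrays per group and signals near background for T cell genes limit all of this.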

Other observations

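Circadian clock genes were put together as a list after Dbp was seen among the largest differences, and time of day is not among the labels used here. Of 17 measured genes, 3 (17.6%) lay higher and 2 (11.8%) lower in both JBlyp/lyp arrays, against 14.9% and 12.6% of all genes. The median was -0.06 and 0 were called by limma, with 2 higher and 1 lower at an unadjusted p under 0.05. Dbp, an activator at D-box elements, read 8.34 and 7.49 in JBlyp/lyp against 7.13 and 6.78 in JB islets (difference 0.97). The related activator Hlf read 7.37 and 7.99 against 6.76 and 6.96 (0.82), but its 3 other probe sets differed by 0.11, 0.07 and -0.02. Nfil3, a repressor at the same elements, read 6.752 and 6.598 against 7.45 and 7.12 (-0.61). The third activator of the family, Tef, differed by 0.02, and the core repressor genes Per1, Per2 and Per3 by -0.10, -0.06 and -0.11. Bhlhe40 had the lowest value of the list at -0.69, with separate arrays. Npas2 at -0.43 and Nr1d2 at 0.43 had overlapping arrays, and the other probe sets of Nr1d2 differed by 0.82 and 0.20. In F344 the differences of Dbp, Hlf and Nfil3 were 0.11, -0.04 and 0.02, and the difference between the backgrounds was not called for any of the 3 (adjusted p = 0.631, 0.448 and 0.551, limma).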
